A study of Homo sapiens with 6 samples.

Results

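The mitochondrial ribosomal proteins are described here in Y79 cells, an established human retinoblastoma line, under arginine deprivation. The members were the rows of the count table that map to a protein-coding gene whose symbol is MRPL or MRPS followed by a number and, in some cases, a letter. This rule found 78 of 63140 gene IDs, 49 of the large (MRPL) subunit and 29 of the small (MRPS) subunit. RNA was sequenced from 3 libraries of wild-type Y79 cells in complete medium (controls) and from 3 libraries of the same line in that medium with recombinant human arginase (rhArg), an enzyme that breaks down arginine, at 2 U/mL for 72 h. Both groups grew in RPMI medium with fetal bovine serum and antibiotics, and the only labelled difference between them was the enzyme. The design is limited to 1 cell line, 1 dose and 1 time. The methods define n for the experiments in general as the number of experiments, but neither they nor the labels say of the RNA-seq whether replicate libraries were grown as separate cultures. The p-values therefore reflect the spread among these 6 libraries alone, and that spread may be technical.

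The mitoribosome sits in the mitochondrial matrix and translates the few messenger RNAs encoded by mitochondrial DNA, all of them for subunits of the respiratory chain and ATP synthase. Its ribosomal RNAs come from mitochondrial DNA, whereas every one of its proteins is encoded in the nucleus, translated in the cytosol and imported. The small subunit binds the messenger RNA and decodes it, and the large subunit forms the peptide bond and passes the new chain through its exit tunnel to the inner membrane. Many of these proteins descend from bacterial ribosomal proteins and others have no bacterial counterpart.

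The libraries held between 12580622 and 13747351 counts, and the members took 0.362%, 0.349% and 0.339% of the counts of the controls against 0.252%, 0.268% and 0.255% of those of the rhArg libraries. The 8 listed markers of retinoblastoma and photoreceptor precursor cells were detected in every library. CRX, OTX2, NEUROD1, SYP and MYCN had at least 4003 normalized counts, whereas RCVRN had 169 to 272, THRB 194 to 353 and ARR3 37.9 to 91.4. Their levels moved with the treatment, since every rhArg library was below every control for OTX2, NEUROD1, SYP, MYCN and ARR3 and above every control for CRX. The sum of the 8 ran from 87126 to 107208 normalized counts in the controls and from 46732 to 48356 under rhArg. Most of that drop was MYCN, with 56187, 61787 and 44823 in the controls and 14011, 13273 and 12002 under rhArg. The 11 listed markers of other cells summed to between 80.2 and 96.9 in the controls and to between 221 and 274 under rhArg. Most of the second sum was SLC1A3, a glial glutamate transporter, with 11.9, 17.2 and 12.7 in the controls and 214, 164 and 187 under rhArg, and without it the sums ran from 67.5 to 82.4 and from 56.9 to 67.5. RLBP1 of Müller glia was at 0 in all libraries, VWF of endothelium had 2.98 to 5.39 in the controls and 9.98 to 18.3 under rhArg, the collagens COL1A1 and COL1A2 of fibroblasts had 39.9 to 53.6 and 2.89 to 16.2 over the 6 libraries, and PMEL of pigment cells had 0 to 6.95. RPE65, PECAM1, PTPRC, CD68 and DCN lay between 0 and 3.91. The part of these marker levels in the results below was not tested. The 37 gene IDs of mitochondrial DNA, among them both ribosomal RNAs of the mitoribosome, were listed at 0 in all libraries, so the RNA of the particle and the messenger RNAs it translates were not analysed here.

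Most messenger RNAs for mitoribosomal proteins were lower in arginine-deprived cells. Of the 78 members, 75 passed the filter on low counts, and by edgeR's quasi-likelihood test with an adjusted p under 0.05, 49 of them fell, 4 rose and 22 did not pass. The 49 make up 65.3% of the members tested, whereas 30.9% of all 15221 genes tested fell, and the 4 make up 5.33% against 30.7% of all genes tested. In either direction, 61.7% of all genes passed. DESeq2, run on every gene with a count, called 47 members lower, against 21.4% of all genes with an adjusted p, many of them with low counts. Run on the genes that pass the filter, a choice made after seeing the data, DESeq2 also called 47 members lower, against 29.1% of those genes. The median log2 fold change was -0.65 over the members and -0.005 over all genes tested. The second value is held near 0 by the normalization, which would hide any change that all genes had in common. In bulk RNA, fewer cells that express a gene and less of its RNA per cell cannot be told apart.

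The change was moderate in size. A total of 17 members, 10 of the large and 7 of the small subunit, fell by more than 1 on the log2 scale, against 11% of all genes tested, and 0 members rose by more than 1, against 12.4% of all genes. The 49 members that fell ranged from -1.59 to -0.34 in log2 fold change and lie on 19 chromosomes. In 48 of them every rhArg library was below every control. The exception was MRPL19, a large subunit protein, with 971, 701 and 909 normalized counts in the controls and 612, 605 and 771 under rhArg. Over all members tested the groups did not overlap in 58 (77.3%), against 66.5% of all genes tested.

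The large and small subunits were then set side by side. Of the 47 large subunit members tested, 35 fell (74.5%), 1 rose (2.13%) and 11 did not pass. Of the 28 small subunit members tested, 14 fell (50%), 3 rose (10.7%) and 11 did not pass. Over all genes tested, 30.9% fell and 30.7% rose. Median log2 fold changes were -0.71 for the large subunit and -0.34 for the small subunit, so that the middle gene decreased by 38.9% in the large and decreased by 21.2% in the small subunit. The small subunit genes were also more scattered, with an SD of log2 fold changes of 0.68 against 0.44. The middle of each distribution ran from -0.96 to -0.36 for the large and from -1.02 to -0.16 for the small subunit (lower and upper quartiles), so the lower quartiles were close and the upper ones apart. No test of the subunit difference was made, since genes are not replicates, and it is given as a description.

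**Figure D1:**
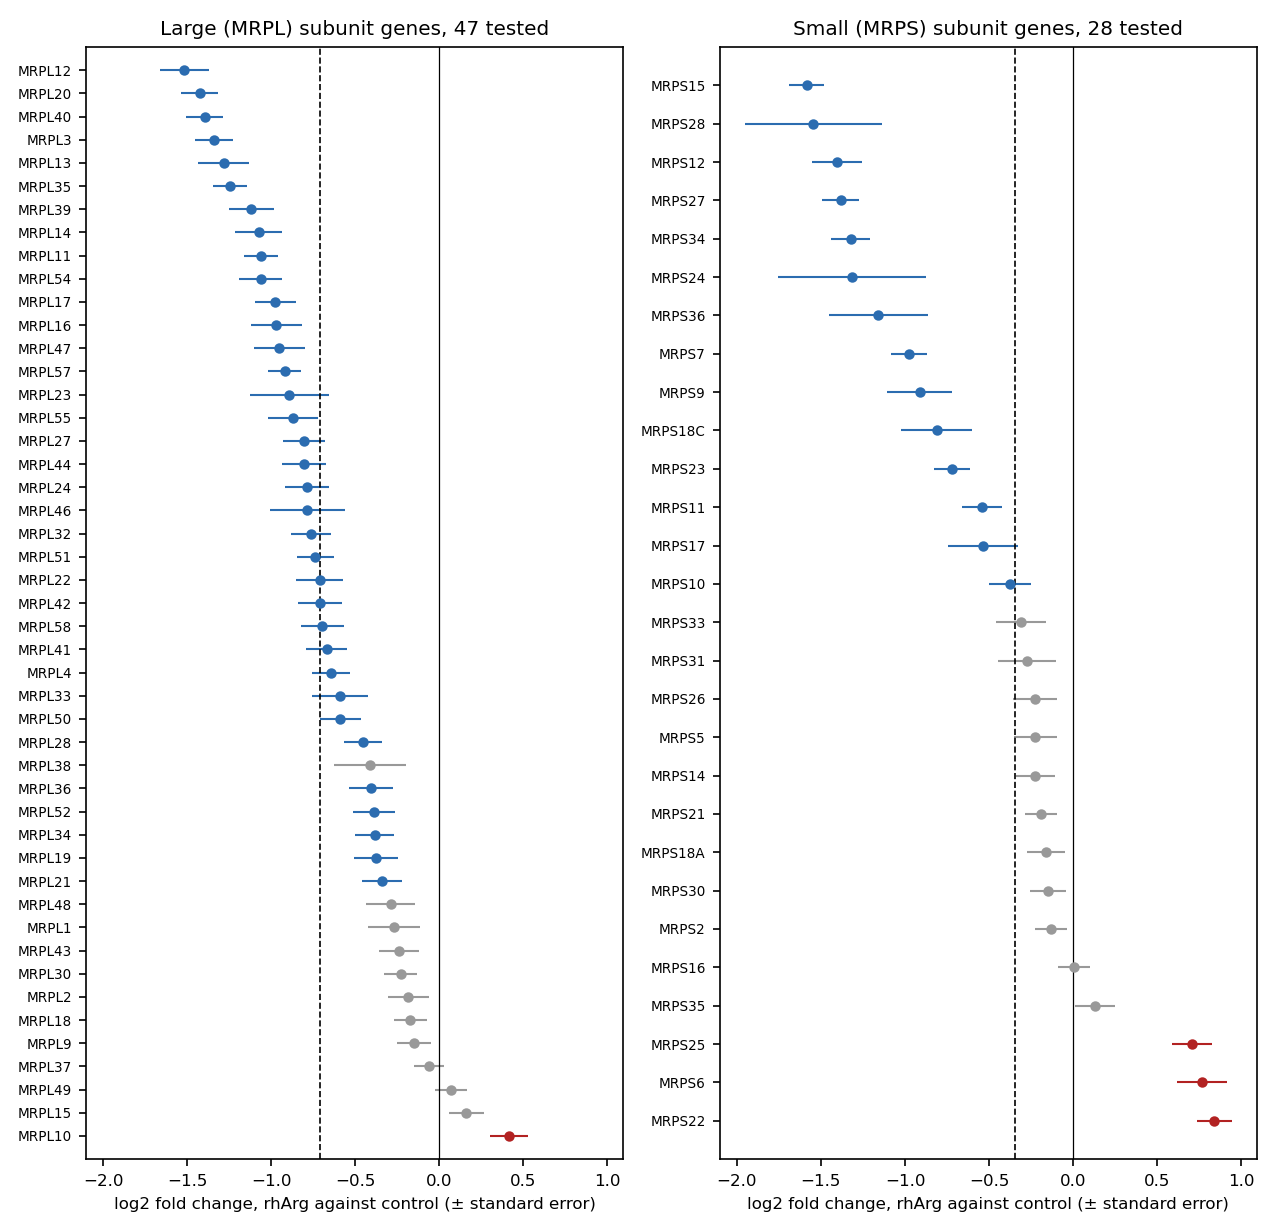
Log2 fold change (rhArg against control, horizontal axis) of each large (left) and small (right) subunit member tested, with bars of ± 1 standard error; blue members fell, red members rose and grey members did not pass the test, and the dashed line is the subunit's median. Most large subunit genes lie left of 0 with MRPL10 alone in red, and in the small subunit a group near 0 separates 14 genes that fell from MRPS25, MRPS6 and MRPS22, which rose.

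Summed over a subunit, the fall appeared in each library. Large subunit genes together took 2319, 2305 and 2131 CPM (counts scaled to the effective size of the library) in the controls and 1540, 1614 and 1579 CPM under rhArg, and their mean decreased by 29.9% from 2252 ± 105 to 1578 ± 36.9 CPM (SD, n = 3). Small subunit genes took 1313, 1285 and 1185 CPM in the controls and 986, 1056 and 988 CPM under rhArg, and their mean decreased by 19.9% from 1261 ± 67.1 to 1010 ± 39.6 CPM (SD, n = 3). All 3 rhArg libraries were below all 3 controls in both sums. The ratio of small to large subunit CPM was 0.566, 0.557 and 0.556 in the controls and 0.640, 0.654 and 0.626 under rhArg. The mean ratio was 0.560 in the controls and 0.640 under rhArg (14.3% higher), and 3 of the 4 members that rose are in its numerator. With these 4 left out, it was 0.525 in the controls and 0.551 under rhArg (4.96% higher). The mean sums then went from 2201 to 1510 CPM (large) and from 1156 to 832 CPM (small). Most of the shift in the ratio thus lay in the members that rose. They were left out by their call, so these values are a description.

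**Figure D2:**
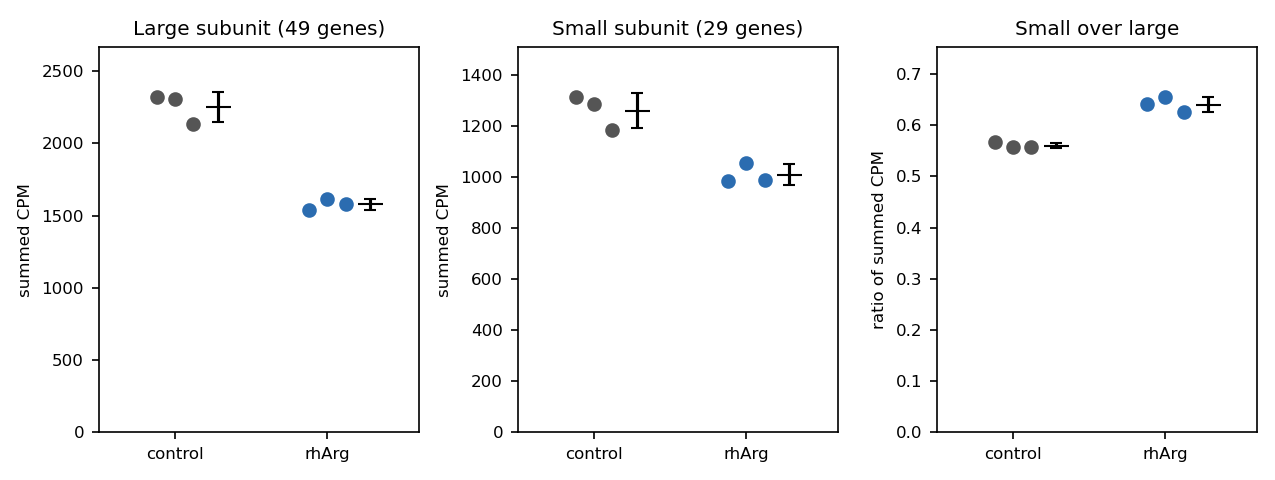
Summed CPM of the 49 large (left) and 29 small (middle) subunit genes and the ratio of the small to the large sum (right) in each library, with control libraries in grey, rhArg libraries in blue and the mean ± SD of 3 libraries beside them. Both sums are lower in every rhArg library than in every control, from 2252 to 1578 CPM and from 1261 to 1010 CPM on average, while the ratio is higher under rhArg.

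Promoters of the members share short sequences that the rule did not use. Of the 78 members, 69 had a promoter in the RefSeq table (GRCh38.p14, 250 bases before to 50 after the start), and 4 sets of letters were searched on both strands: CCGGAAG for ETS factors such as GABPA (nuclear respiratory factor 2), AAGATGGCG for YY1, GCGCANGCG for NRF1 and CACGTG for the E-box bound by MYC family proteins. The ETS letters were in 29 of 69 members (42.0%), against 10.7% of all 27305 promoters and 19.2% of those of the genes tested. The YY1 letters were in 13 members (18.8%), against 1.85% and 3.92%. The NRF1 letters were in 13 members (18.8%), against 8.05% and 14.9%, and the E-box was in 6 (8.70%), against 7.44% and 10.1%. ETS or YY1 letters were in 38 members and both in 4, with 0 overlaps between them.

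The letters occurred among members that fell and among those that did not pass. The ETS letters were in 17 of 43 members that fell and in 10 of 20 that did not pass, the YY1 letters in 9 and 3, the NRF1 letters in 9 and 3 and the E-box in 3 and 2. The promoters below were picked to include members that fell, did not pass and rose, so they are examples only. MRPS34, MRPL20 and MRPS12, with 1 to 3 ETS matches, fell by more than 1 on the log2 scale. MRPS10 and MRPL42 carry the YY1 letters just past the start and fell less, and MRPS10 also carries 1 ETS match. MRPS21 carries ETS matches and MRPS30 the YY1 letters, and neither passed. MRPS22 carries 3 ETS matches and rose. Each line gives 90 bases before and 30 after the RefSeq start, 5′ to 3′ on the gene's strand, and capitals mark the ETS letters (CCGGAAG or its reverse complement CTTCCGG) and the YY1 letters (AAGATGGCG). The windows are chr16:1773105-1773224 (minus strand) for MRPS34, chr1:1407264-1407383 (minus) for MRPL20, chr19:38930854-38930973 (plus) for MRPS12, chr6:42217832-42217951 (minus) for MRPS10, chr12:93467424-93467543 (plus) for MRPL42, chr1:150293771-150293890 (plus) for MRPS21, chr5:44808857-44808976 (plus) for MRPS30 and chr3:139343904-139344023 (plus) for MRPS22.
MRPS34: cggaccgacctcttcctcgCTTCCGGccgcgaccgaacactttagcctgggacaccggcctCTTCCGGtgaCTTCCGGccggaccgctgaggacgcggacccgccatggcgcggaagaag
MRPL20: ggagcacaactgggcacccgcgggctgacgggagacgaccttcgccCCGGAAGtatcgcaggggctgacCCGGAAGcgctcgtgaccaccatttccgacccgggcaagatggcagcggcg
MRPS12: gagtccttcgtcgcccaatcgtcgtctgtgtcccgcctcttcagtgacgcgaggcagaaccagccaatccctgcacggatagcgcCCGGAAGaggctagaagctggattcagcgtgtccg
MRPS10: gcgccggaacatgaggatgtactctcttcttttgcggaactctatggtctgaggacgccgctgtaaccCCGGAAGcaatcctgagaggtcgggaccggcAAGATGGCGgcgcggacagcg
MRPL42: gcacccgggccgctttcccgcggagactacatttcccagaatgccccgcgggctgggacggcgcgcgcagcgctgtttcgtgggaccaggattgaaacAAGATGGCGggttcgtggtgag
MRPS21: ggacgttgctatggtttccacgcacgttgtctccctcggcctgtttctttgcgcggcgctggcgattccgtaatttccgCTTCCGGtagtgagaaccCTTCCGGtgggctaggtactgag
MRPS30: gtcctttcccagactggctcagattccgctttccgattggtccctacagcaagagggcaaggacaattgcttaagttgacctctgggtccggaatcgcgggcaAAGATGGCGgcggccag
MRPS22: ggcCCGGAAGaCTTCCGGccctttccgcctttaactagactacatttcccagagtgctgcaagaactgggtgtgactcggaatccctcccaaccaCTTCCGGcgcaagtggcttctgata

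A match is a description of the letters and not evidence that a factor was bound there. MRPS10, a small subunit protein, had 674, 479 and 530 normalized counts in the controls and 405, 455 and 440 under rhArg, and MRPS21, the counterpart of bacterial S21, had 1529, 1618 and 1387 against 1279, 1414 and 1271. The groups were separate for MRPS10 and overlapped for MRPS21. Neither call held throughout, since MRPS10 did not pass without control replicate 1 or without rhArg replicate 1, and MRPS21 was called lower without control replicate 3.

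Within the large subunit, the lowest fold changes were spread over different parts of the particle. MRPL12 (chr17:81703367-81707517, plus strand) forms the flexible stalk that recruits translation factors. It had 391, 512 and 374 normalized counts in the controls and 153, 161 and 132 under rhArg, a log2 fold change of -1.52 ± 0.15 (SE, adjusted p = 2.48e-07). Every rhArg library was far below the lowest control. Of its exon bases, 69.5% also lie in a gene listed as ENSG00000262660, and fragments in shared exons could not be assigned, so its level is uncertain. MRPL20 (chr1:1401909-1407293, minus), a counterpart of bacterial L20, which is needed to assemble the subunit, had 707, 867 and 821 in the controls and 287, 283 and 320 under rhArg (-1.43 ± 0.11, adjusted p = 2.51e-08), with 15.6% of its exon bases shared. MRPL40 (chr22:19432545-19436075, plus), which has no bacterial counterpart and lies in the central protuberance, went from 577, 585 and 524 to 203, 225 and 212 (-1.40 ± 0.11, adjusted p = 2.82e-08). None of its exon bases lie in another gene, and its control values lay close together. MRPL3 (chr3:131462212-131502983, minus), from the core of the subunit near the peptidyl transferase centre, went from 1644, 1210 and 1330 to 534, 554 and 563 (-1.34 ± 0.11, adjusted p = 6.57e-08).

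Another 6 large subunit members fell by more than 1. MRPL13 had 407, 271 and 353 normalized counts in the controls and 137, 139 and 148 under rhArg (-1.28 ± 0.15), and MRPL35 had 1015, 911 and 891 against 415, 376 and 395 (-1.25 ± 0.10). Both are counterparts of bacterial proteins, and neither had overlapping groups. MRPL39, a protein beside the exit tunnel, had 291, 263 and 266 against 115, 133 and 130 (-1.12 ± 0.14). MRPL14, which contributes to a bridge between the subunits, had 791, 938 and 624 against 345, 428 and 344 (-1.07 ± 0.14), with the widest spread of the 6 among its controls. MRPL11, at the base of the stalk, had 815, 846 and 741 against 359, 397 and 393 (-1.06 ± 0.10). MRPL54, which has no bacterial counterpart, had 442, 489 and 380 against 195, 228 and 204 (-1.06 ± 0.13). Adjusted p for these 6 lay between 3.58e-08 and 6.96e-06.

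By place in the subunit, members were listed for the exit tunnel region and the central protuberance, and neither list holds every protein of its structure. All 7 tested members listed for the exit tunnel region fell, with a median log2 fold change of -0.89, where 30.9% of all genes fell. They were MRPL39 and MRPL17 (-0.98), MRPL47 (-0.95), MRPL23 (-0.89), MRPL44 (-0.81), MRPL24 (-0.79) and MRPL22 (-0.71), and MRPL45 of the same region had too few counts to be tested. MRPL23 had 102, 130 and 113 normalized counts in the controls and 68.8, 80.8 and 36.6 under rhArg. The central protuberance is the crown of the large subunit that meets the small one. Of the 7 members listed for it, 3 fell (42.9%, against 30.9% of all genes), namely MRPL40, MRPL27 at -0.81 and MRPL46 at -0.78. The median of the 7 was -0.41, and the lists were not compared by a test. MRPL38, MRPL48, MRPL18 and MRPS30 of the same structure had fold changes of -0.41, -0.29, -0.17 and -0.15 and did not pass. MRPL38 overlapped widely between groups, with 107, 188 and 222 in the controls against 132, 142 and 116, and 45.1% of its exon bases are shared with another gene.

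The stalk showed members in both directions. MRPL11 and MRPL12 fell, and MRPL10 (chr17:47823272-47831541, minus), the protein that joins MRPL12 to the body of the subunit, was the only large subunit member that rose. MRPL10 had 666, 734 and 617 normalized counts in the controls and 805, 856 and 1028 under rhArg, a log2 fold change of 0.42 ± 0.11 (SE, adjusted p = 0.00425). Its groups did not overlap, and none of its exon bases lie in another gene.

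Members with and without a bacterial counterpart were counted separately. In the large subunit, of 30 with a counterpart, 23 fell and 1 rose (median -0.74), and of 17 without one, 12 fell and 0 rose (median -0.70). In the small subunit, 10 of 16 with a counterpart fell and 1 rose (median -0.54), and 4 of 12 without one fell and 2 rose (median -0.25). The last share, 33.3%, is close to the 30.9% of all genes that fell. These 12 were taken by symbol and include MRPS36, which fell, and MRPS30 and MRPS18A, which did not pass. As given below, MRPS36 is not a mitoribosomal protein, and MRPS30 and MRPS18A are part of the large subunit. The assignments come from general knowledge of the particle, and the difference between these groups was not tested.

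The 11 large subunit members that did not pass were MRPL38, MRPL48, MRPL1, MRPL43, MRPL30, MRPL2, MRPL18, MRPL9, MRPL37, MRPL49 and MRPL15, with fold changes from -0.41 to 0.16. MRPL37, a protein without a bacterial counterpart, had the highest level per exon length of all members in the controls at 99.1 RPKM (CPM per 1000 exon bases). It had 3541, 3161 and 3290 normalized counts in the controls and 3026, 3249 and 3287 under rhArg (-0.06 ± 0.09, adjusted p = 0.552), and the groups overlapped. MRPL41, the next by level per length at 91.9 RPKM, fell from 649, 857 and 608 to 443, 449 and 436 (-0.67 ± 0.12, adjusted p = 0.000204). MRPL30 came nearest to the threshold among members that did not pass (-0.23 ± 0.10, adjusted p = 0.0541), with 1069, 880 and 1009 in the controls and 840, 830 and 854 under rhArg. Its rhArg libraries were all below its controls.

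In the small subunit the lowest member of the whole set was MRPS15 (chr1:36455718-36464384, minus), the counterpart of bacterial S15, which binds ribosomal RNA early in assembly. It had 885, 914 and 797 normalized counts in the controls and 283, 287 and 294 under rhArg, a log2 fold change of -1.59 ± 0.10 (SE, adjusted p = 3.07e-09). The rhArg libraries were nearly equal, and none of its exon bases are shared. MRPS12 (chr19:38930944-38933168, plus), the counterpart of the S12 protein of the decoding centre, went from 395, 521 and 358 to 168, 147 and 167 (-1.40 ± 0.15, adjusted p = 7.17e-07). MRPS27 (chr5:72214953-72321717, minus), a pentatricopeptide repeat protein without a bacterial counterpart, went from 1229, 990 and 974 to 399, 404 and 421 (-1.38 ± 0.11, adjusted p = 3.16e-08). MRPS34 (chr16:1771890-1773150, minus), also without a bacterial counterpart, went from 883, 949 and 832 to 363, 404 and 297 (-1.32 ± 0.12, adjusted p = 1.04e-07). In each of these 4 genes the highest rhArg library was below the lowest control, and in MRPS34 31.2% of exon bases lie in EME2.

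The remaining 3 small subunit members past 1 had few counts. MRPS28 had 25.8, 16.2 and 27.4 normalized counts in the controls and 3.99, 5.99 and 13.5 under rhArg (-1.55 ± 0.41, adjusted p = 0.00382). MRPS24 had 11.9, 22.6 and 10.8 against 7.98, 5.99 and 3.86 (-1.32 ± 0.44, adjusted p = 0.0163). Groups were separate in both, but the standard errors were about 4 times those of MRPS15. MRPS24 did not pass with DESeq2 (adjusted p = 0.0922 over all genes with any count), nor without control replicate 2 (-0.94, adjusted p = 0.116) or rhArg replicate 3 (-1.09, adjusted p = 0.0681). Shared exon bases were 35.8% for MRPS28 and 23.2% for MRPS24. MRPS36 had 66.5, 57.1 and 31.3 against 27.9, 19.0 and 22.2 (-1.16 ± 0.29, adjusted p = 0.0029). Despite its symbol, MRPS36 (KGD4) is now known as a component of the 2-oxoglutarate dehydrogenase complex and not of the mitoribosome.

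Of the 3 small subunit members that rose, MRPS22 and MRPS25 have gene models that are long and largely shared with other genes. MRPS22 (chr3:139005806-139360497, plus), a protein without a bacterial counterpart whose mutations cause a mitochondrial disease, had 438, 374 and 359 normalized counts in the controls and 704, 689 and 705 under rhArg (0.84 ± 0.11, adjusted p = 4.44e-06). Its groups were far apart. The gene model in the table spans 16385 exon bases, of which 42.8% lie in other genes, mainly COPB2, and begins well upstream of the RefSeq promoter printed above. MRPS25 (chr3:15009611-15065339, minus), also without a bacterial counterpart, had 707, 784 and 800 against 1333, 1394 and 1017 (0.71 ± 0.12, adjusted p = 7.77e-05), and 45.9% of its 18309 exon bases are shared, mainly with NR2C2. MRPS6 (chr21:34073224-34143034, plus), the counterpart of bacterial S6, had 298, 186 and 215 against 388, 392 and 411 (0.77 ± 0.15, adjusted p = 0.000335), with 9.48% of exon bases shared. All 3 had separate groups, and the part of the shared or long exon models in these values was not tested.

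**Figure D3:**
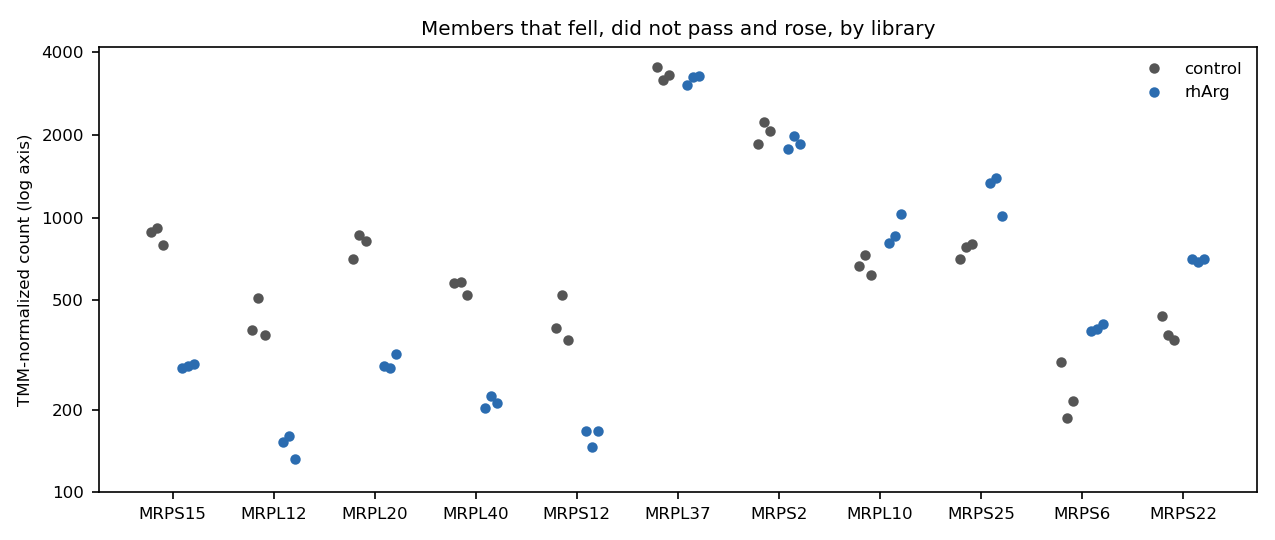
TMM-normalized counts (vertical log axis) of 11 members in the 3 control (grey) and 3 rhArg (blue) libraries, ordered from members that fell (MRPS15, MRPL12, MRPL20, MRPL40 and MRPS12) through members that did not pass (MRPL37 and MRPS2) to members that rose (MRPL10, MRPS25, MRPS6 and MRPS22). Groups are apart in every member that fell or rose, by a log2 fold change of -1.59 in MRPS15 and 0.84 in MRPS22, and overlap in MRPL37 and MRPS2.

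Another 7 small subunit members fell by between 0.37 and 0.97 on the log2 scale: MRPS7 (-0.97), MRPS9 (-0.91), MRPS18C (-0.81), MRPS23 (-0.72), MRPS11 (-0.54), MRPS17 (-0.54) and MRPS10 (-0.37). MRPS7, which binds ribosomal RNA in the head of the subunit, had the highest level per length of them (30.3 RPKM in the controls), with 1370, 1441 and 1177 normalized counts in the controls and 615, 740 and 673 under rhArg. The 11 that did not pass were MRPS33, MRPS31, MRPS26, MRPS5, MRPS14, MRPS21, MRPS18A, MRPS30, MRPS2, MRPS16 and MRPS35, with fold changes from -0.31 to 0.13. MRPS2 had 1847, 2235 and 2060 in the controls against 1778, 1973 and 1853 (-0.13 ± 0.10, adjusted p = 0.246), and MRPS16 had 809, 740 and 748 against 726, 790 and 793 (0.01 ± 0.09, adjusted p = 0.954). Both are counterparts of bacterial proteins, and their groups overlapped.

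Some members sit elsewhere than their symbol says. MRPS30 and MRPS18A are part of the large subunit, and both had overlapping groups. MRPS30 had 1482, 1220 and 1173 normalized counts in the controls and 1183, 1100 and 1212 under rhArg (-0.15 ± 0.10, adjusted p = 0.225), and MRPS18A had 456, 530 and 449 against 380, 467 and 437 (-0.16 ± 0.11, adjusted p = 0.236), with 50.9% of its exon bases shared, mainly with RSPH9. MRPL58 is a peptidyl-tRNA hydrolase built into the large subunit, and it fell from 311, 285 and 276 to 187, 185 and 166 (-0.70 ± 0.13, adjusted p = 0.000188).

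Proteins of the mitoribosome that carry other symbols are not members by the rule, and 4 of 5 fell (80%, against 30.9% of all genes). PTCD3, a pentatricopeptide repeat protein of the small subunit, had 2230, 1922 and 2155 normalized counts in the controls and 1171, 1201 and 1125 under rhArg (-0.85 ± 0.09). GADD45GIP1, a large subunit protein, had 854, 1034 and 761 against 397, 470 and 353 (-1.12 ± 0.13), with 29.6% of exon bases shared. AURKAIP1 (-0.67 ± 0.13) and CHCHD1 (-0.37 ± 0.14), both of the small subunit, fell as well, and DAP3, a GTP-binding protein of the small subunit, had a fold change of 0.17 ± 0.09 (adjusted p = 0.115). With all 7 of these genes placed by structure and MRPS36 left out, 36 of 50 large subunit genes fell (median -0.70) and 16 of 29 small subunit genes fell (median -0.37).

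The 3 members that did not pass the filter were MRPL45, MRPL53 and MRPS18B. MRPL45, which anchors the ribosome at the inner membrane, had raw counts of 8, 7 and 5 in the controls and 11, 11 and 9 under rhArg, and its pseudogene MRPL45P2 had 8, 14 and 18 against 10, 13 and 19. MRPS18B had 2, 1 and 1 counts in the controls and 0 in each rhArg library. Of the 31 protein-coding genes within 500000 bases of MRPS18B, 22 had under 10 counts in all 6 libraries together, against 30.3% of all protein-coding genes, and for MRPL45 this was 9 of 16. MRPL53 had 1 count in 1 control library, 99.4% of its exon bases lie in other genes, and 2 of its 29 coding neighbours were that low. These values describe what was counted, and whether the genes are expressed cannot be read from them. Pseudogenes of the members took few counts, since 81 rows held 310 counts in all, or 0.129% of the members' counts.

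Levels per length differed widely between members. Control levels per exon length ran from 0.772 to 99.1 RPKM in the large subunit (median 18.4) and from 0.439 to 76.4 RPKM in the small subunit (median 10.0) over members tested. Across the 75 members tested, the rank correlation of log2 fold change was 0.0349 with control RPKM and 0.196 with exon bases, given as descriptions of genes from the same libraries. Only 5 members have gene models over 10000 exon bases, namely MRPL42, MRPS27, MRPS5, MRPS25 and MRPS22, and these went in different directions. MRPL42 and MRPS27 fell, MRPS25 and MRPS22 rose, and MRPS5 did not pass (-0.22).

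Several members start close to another gene on the opposite strand, and whether such pairs share a promoter was not tested. A protein-coding gene on the opposite strand started within 1000 bases of 17 members, and 16 of these partners were tested. Of the 12 members that fell and had a tested partner, 6 had a partner that fell and 0 had one that rose, where 30.9% and 30.7% of all genes did, and the pair MRPL46 and MRPS11 is counted from both sides. Partners also fell beside members that did not pass, namely TCP1 (-0.65) beside MRPL18 and MITD1 (-0.95) beside MRPL30. The partners of MRPL10, which rose, and of MRPL49, which did not pass, were LRRC46 (0.07) and FAU (-0.20). Neither of these partners passed. MRPS12 starts 181 bases from SARS2, the mitochondrial seryl-tRNA synthetase, which fell by 2.08 on the log2 scale. SARS2 had few counts, with means of 86.6 in the controls and 20.5 under rhArg, and 48.2% of its exon bases are shared. MRPL36 starts 41 bases from NDUFS6, a complex I subunit, and fell by 0.41 while NDUFS6 fell by 1.55. MRPL46 and MRPS11 start 63 bases apart and fell by 0.78 and 0.54. MRPL27 starts 13 bases from EME1, a DNA repair endonuclease subunit, which fell by 1.01. In contrast, MRPL57 fell by 0.92 from 814, 909 and 801 normalized counts to 448, 436 and 449, and SKA3, which starts 106 bases away, had a log2 fold change of -0.003.

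Most of the genes that work with the mitoribosome were lower as well. Over 93 tested genes, namely the mitoribosomal proteins under other symbols and the 4 lists given next, 58 fell, 4 rose and 31 did not pass. Thus 62.4% fell and 4.30% rose, against 30.9% and 30.7% of all genes tested, and the median log2 fold change was -0.48. Among the mitochondrial translation factors, 7 of 15 fell (46.7%, the lowest share of these lists) and 1 rose (median -0.28). TUFM, the elongation factor that delivers aminoacyl-tRNA to the mitoribosome, had 3627, 3706 and 3229 normalized counts in the controls and 1750, 1857 and 1732 under rhArg (-0.98 ± 0.09, adjusted p = 1.81e-07). MTFMT, which formylates the initiator methionyl-tRNA, fell by 0.98, and MTIF2, the initiation factor that brings that tRNA to the small subunit, fell by 0.60. OXA1L, which inserts the new chains into the inner membrane and binds the large subunit beside MRPL45, rose from 1911, 1871 and 1868 to 2823, 2634 and 2813 (0.55 ± 0.09, adjusted p = 4.6e-05).

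Of 29 mitoribosome assembly factors, 17 fell (58.6%, against 30.9% of all genes) and 1 rose (median -0.44). MTERF3, a protein of the mitochondrial transcription termination factor family, fell from 391, 338 and 330 normalized counts to 117, 129 and 121 (-1.53 ± 0.13, adjusted p = 7.95e-08), and C1QBP, a matrix protein needed for mitochondrial translation, fell from 3895, 3482 and 2986 to 1639, 1753 and 1493 (-1.09 ± 0.11, adjusted p = 3.61e-07). MTG1, a GTPase of large subunit assembly, fell by 1.53, with 57.2% of its exon bases shared. MTERF4, which acts in large subunit assembly with NSUN4, rose by a log2 fold change of 0.28 ± 0.10 (adjusted p = 0.0215), but 51.0% of its exon bases are shared, mainly with SNED1, and the call was lost without rhArg replicate 1 (adjusted p = 0.102) or 3 (adjusted p = 0.0581) and without the filter on low counts (adjusted p = 0.0739).

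In mitochondrial transcription and RNA processing, 18 of 25 genes fell (72%, against 30.9% of all genes) and 2 rose (median -0.56). SLIRP, which with LRPPRC keeps mitochondrial messenger RNAs stable, fell from 597, 483 and 491 normalized counts to 132, 94.8 and 113 (-2.21 ± 0.14, adjusted p = 3.44e-09). PNPT1, a mitochondrial RNA nuclease, fell by 1.18 and ELAC2, which trims the 3′ ends of mitochondrial tRNAs, by 0.87. MTO1, a tRNA wobble modification enzyme, rose by 0.70 ± 0.11, and SUPV3L1, the helicase partner of PNPT1, by 0.36 ± 0.09. Of 19 mitochondrial aminoacyl-tRNA synthetases tested, 12 fell (63.2%) and 0 rose (median -0.40). EARS2 and CARS2, which charge the glutamate and cysteine tRNAs, fell by 1.25 and 1.09. In both the rhArg libraries were below the controls.

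For scale, 63 of 75 nuclear-encoded subunits of the respiratory chain and ATP synthase fell (84%) and 1 rose (median -0.73). Of 81 cytosolic ribosomal protein genes, 43 fell (53.1%) and 1 rose (median -0.30), where 30.9% of all genes fell and 30.7% rose. Both lists were drawn up by symbol after the data had been seen, and the members were not tested against them.

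**Figure D4:**
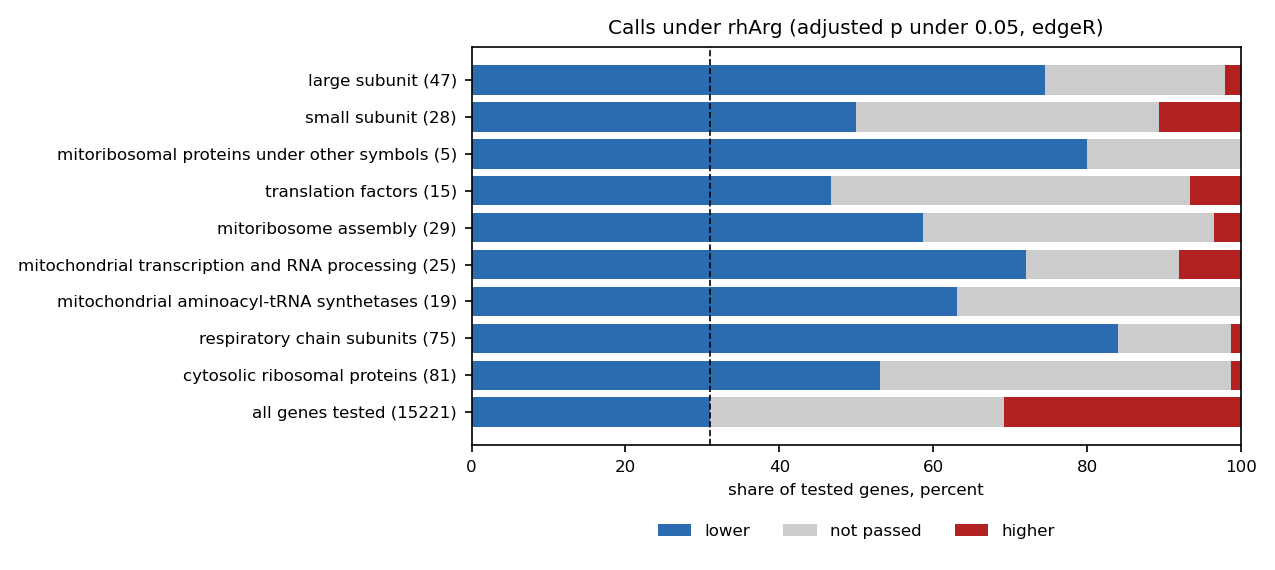
Share of tested genes (horizontal axis, percent) that fell (blue), did not pass (grey) or rose (red) under rhArg in each list, with the number of genes tested in brackets and the share of all genes that fell as a dashed line at 30.9%. The large subunit has 74.5% of its genes in blue and the small subunit 14 of 28. Every list drawn exceeds the dashed line except all genes tested, which set it (the regulators, of which 17.6% fell, are not drawn).

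Among 17 regulators known to act on mitochondrial or ribosomal genes, 3 fell (17.6%, against 30.9% of all genes) and 7 rose (41.2%, against 30.7%). MYCN, the MYC family member amplified in Y79, fell from 56187, 61787 and 44823 normalized counts to 14011, 13273 and 12002 (-2.05 ± 0.12, adjusted p = 7.64e-10), and MYC rose from 58.6, 76.5 and 51.8 to 733, 601 and 599 (3.37 ± 0.15, adjusted p = 6.86e-11). NRF1, a transcription factor of nuclear genes for mitochondrial proteins, fell from 311, 276 and 268 to 133, 110 and 110 (-1.28 ± 0.14, adjusted p = 1.21e-06). Of the coactivators of NRF1, PPRC1 fell by 0.55 ± 0.10, PPARGC1A rose by 3.47 ± 0.31 from 7.95, 6.46 and 2.93 to 68.8, 66.9 and 58.8, and PPARGC1B did not pass (0.13 ± 0.10, adjusted p = 0.287). YY1 rose by 0.35 ± 0.09 (adjusted p = 0.00218).

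The ETS factor GABPA had 798, 559 and 655 normalized counts in the controls and 508, 524 and 626 under rhArg (-0.28 ± 0.13, adjusted p = 0.0697), and passed in 3 of the alternatives. Its partner GABPB1 did not pass (0.22 ± 0.14) and GABPB2 rose by 0.43 ± 0.14 (adjusted p = 0.0142), a call lost without control replicate 3 (adjusted p = 0.0733) or without rhArg replicate 2 (adjusted p = 0.0648) or 3 (adjusted p = 0.0776). Factors of the amino acid and mitochondrial stress response rose, namely ATF5 from 346, 444 and 415 to 14595, 13818 and 17463 (5.25 ± 0.13), ATF4 from 7100, 5665 and 5243 to 10915, 10903 and 11018 (0.87 ± 0.11) and DDIT3 by 1.73 ± 0.12, the last with 39.6% of exon bases shared, mainly with MARS1. MAX (0.12 ± 0.10), MXI1 (0.22 ± 0.11), MNT (-0.16 ± 0.11) and ESRRA (0.24 ± 0.13) did not pass. These RNA levels say nothing of the proteins' activity, and no relation between a regulator and the members was tested.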

How the data were processed

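RNA from 3 control and 3 rhArg libraries of Y79 cells was sequenced on a DNBSEQ platform. The authors filtered reads with SOAPnuke, mapped them to hg38 with HISAT2 and deposited raw counts per gene, without normalization. For both tools the version was not given in the sources used. The header of the table names featureCounts 2.0.1, an Ensembl GRCh38 annotation (release 112), no strand option and no option for overlaps, so fragments in exons shared by several genes were dropped. Groups came from the labels, and the time from the series description. The paper gives 2 U/mL for the studies that followed its dose series, and its RNA-seq method states no dose.

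Gene IDs were matched to symbols (62541 of 63140), and where IDs shared a symbol the one with the most counts kept it. Counts were tested by the quasi-likelihood method of edgeR 4.0.16 in R 4.3.3 (glmQLFTest after filterByExpr and TMM) on the group alone, with Benjamini-Hochberg adjustment over the 15221 genes tested. TMM factors ran from 0.975 to 1.02, the common dispersion was 0.0110, and replicates differed by more than sampling noise. Normalized counts are scaled to the mean effective size of the 6 libraries. The standard error is the log2 fold change divided by the square root of F. Promoters are from RefSeq, with the first listed start of each symbol. The procedure was tested on simulated counts.

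The members and gene lists were chosen with earlier results of these data known. Values in every library are given for the 4 lowest and 4 highest members called in each subunit, members past 1 in log2 fold change, members with a special place, up to 3 genes called in each direction in each partner list and the regulators, in part as fold changes only, and not every gene that meets the rule is reported here. Other genes given with values (among them MRPL37, MRPL41, MRPL30, MRPS2, MRPS16 and the partners that start close by on the opposite strand) were chosen after their values were seen. The promoters to print were chosen in the same way. Alternatives were upper-quartile or RLE factors, plain library totals, dropping the filter, a stricter one (a mean count of 20 and 1 CPM throughout a group), DESeq2 1.42.0, each library left out, a replicate block, glmTreat at a log2 fold change of 0.5, subunits by place, and members with over 10% of exon bases in another gene left out. A DESeq2 run on the filtered genes was chosen after seeing the data.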

Additional observations from a re-analysis of the deposited data

How the results depend on the processing

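With upper-quartile or RLE factors, plain library totals, the replicate block or no filter, the same 49 members fell and the same 4 rose (with no filter MRPL38 fell too). With the stricter filter 47 fell, since MRPS24 and MRPS28 were not tested, and with DESeq2 47 fell (MRPS17 and MRPS24 lost), against 21.4% of all genes with an adjusted p and 29.1% of the genes that pass the filter. The replicate numbers did not pair the libraries (correlations of same-numbered libraries -0.08 to 0.06), and with the block the median log2 fold change was -0.70 for the large and -0.34 for the small subunit.

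Leaving out 1 library, members that fell numbered 44 to 51, members that rose 4 to 5, large subunit genes that rose 1 to 2 (MRPL15 also rose without control replicate 1), and the small subunit median lay between -0.43 and -0.25, the latter without control replicate 1. Of the 49 that fell, 44 to 48 were kept, and MRPL19, MRPS17, MRPL21, MRPS10, MRPS24, MRPL36 or MRPL52 was lost. All 4 that rose were kept.

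Tested against a log2 fold change of 0.5, 29 members fell (15.6% of all genes did), 20 of the large and 9 of the small subunit, and 0 large subunit genes rose, fewer by the construction of this test. Without the 28 members with over 10% of exon bases in another gene, 34 of 47 fell, 2 rose (MRPL10 and MRPS6), and in the small subunit 8 fell and 1 rose. No direction of a named gene reversed. Beside those given above, GABPA passed with no filter (adjusted p = 0.0318) and without control replicate 2 (0.00561) or rhArg replicate 3 (0.0337), MXI1 (0.00483) and MNT (0.0056) without control replicate 1 and ESRRA (0.0269) without control replicate 2. The smallest counts limit MRPS24, MRPS28 and the 3 untested members.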
